A study of Mus musculus with 7 samples.

Results

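The genes of growth hormone, insulin-like growth factor (IGF) and insulin signalling were followed by their chromatin accessibility in young and aged mouse liver. The 10 member genes were Ghr, Igf1, Igfbp1, Igfbp2, Igfals, Stat5b, Insr, Irs1, Irs2 and Foxo1. Their members in the data were all accessible regions that overlap the body of one of these genes or the 10 kb on either side of it (GENCODE M21, GRCm38), which held for 124 of the 55680 regions measured. Ghr had 32 of these regions, Insr 19, Stat5b 15, Igf1 14, Foxo1 14, Irs1 8, Igfals 7, Igfbp1 6, Igfbp2 5 and Irs2 4. Lengths ran from 259 to 6185 bp around a median of 958.5 bp. By position there were 12 promoter regions (within 200 bp of a transcription start site, TSS, of the gene), 87 intronic, 6 coding, 3 UTR, 8 upstream and 8 downstream regions. No near-identical copy of any member region was found elsewhere in the genome.

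Accessibility was measured by ATAC-seq, in which the Tn5 transposase inserts sequencing adapters into exposed DNA, on nuclei isolated from liver tissue of male C57BL/6N mice fed ad libitum. The young group comprised 3 samples from animals aged 3 months and the aged group 4 samples from animals aged 18 months, with no other treatment or genotype, and total counts in regions ran from 4474652 to 25461110 per sample. In the deposited design text the aged samples stem from 3 animals, with 2 lobules of 1 liver as separate samples that are not named, whereas the study's methods treat all as separate replicates. They were therefore compared as 4 samples and, as an alternative, with each of the 6 possible pairs summed, and p-values measure the spread between samples rather than strictly between animals.

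In the liver, growth hormone from the pituitary binds its receptor, and the kinase JAK2 then activates the transcription factor STAT5B, which binds DNA at the sequence TTCNNNGAA and drives transcription of Igf1. Hepatocytes secrete most of the IGF-1 in the circulation, where it is carried by binding proteins and by the acid-labile subunit. Insulin acts on the same cells through its receptor, the adaptors IRS1 and IRS2, PI3-kinase and AKT, and AKT excludes the transcription factor FOXO1 from the nucleus, which lowers transcription of FOXO1 targets such as Igfbp1.

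All member regions called more accessible in the main fit lay at Igf1, the gene of the growth factor itself. This fit was edgeR's quasi-likelihood test over all regions and samples with TMM scaling. At an adjusted p under 0.05 (edgeR's quasi-likelihood test over all regions), 12 member regions were more accessible in aged liver, and all 12 were among the 14 regions of Igf1, where 2.44% of all regions were called in that direction. A further 2 member regions were less accessible, 1 downstream of Ghr and 1 in an intron of Foxo1, where 3.3% of all regions were called lower. This balance over all regions (1360 higher and 1838 lower) turned with DESeq2 (2760 and 1931) and with GC offsets (5504 and 1936), under both of which 12 Igf1 regions were called. These fits also called member regions outside Igf1 more accessible, 2 with DESeq2 (the promoter regions of Igfals and Stat5b) and 10 with GC offsets (4 at Stat5b, 2 at Igfals, 2 at Irs1 and 1 each at Insr and Irs2). In the main fit none of the 110 member regions outside Igf1 was more accessible at this threshold. Their median log2 fold change was -0.07, beside -0.04 over all regions and 0.99 over the Igf1 regions. Of the 124 member regions, 21 had all aged samples above all young samples and 8 the reverse, which held for 10.2% and 11.6% of all regions. As these are samples of mixed tissue, more accessible DNA in each cell and more cells with accessible DNA cannot be told apart.

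**Figure D1:**
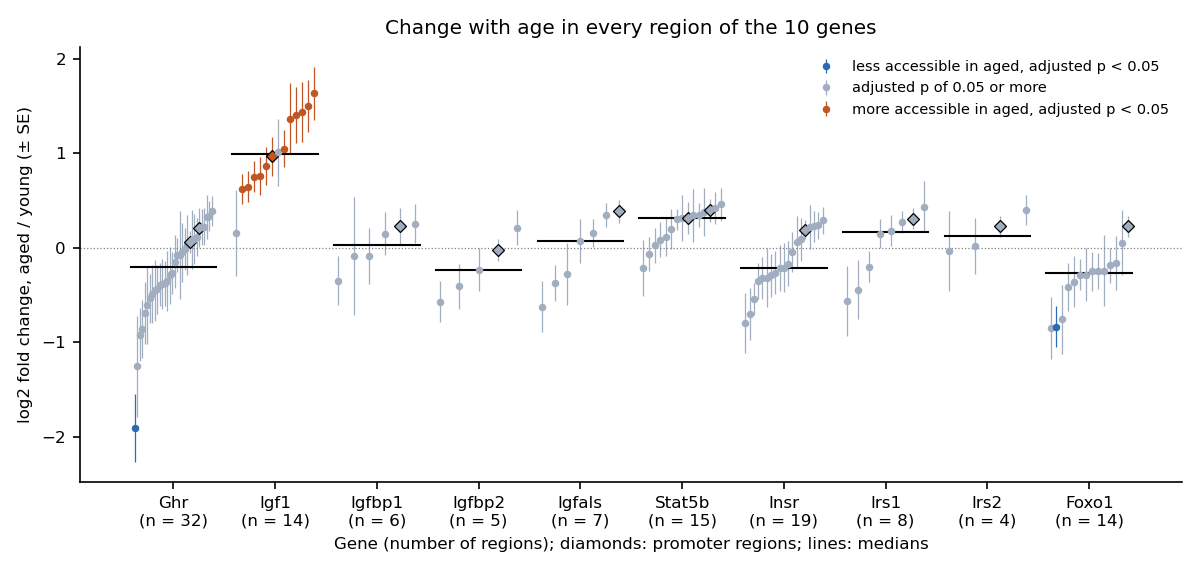
The log2 fold change of accessibility, aged over young, with its standard error for each of the 124 regions, sorted within each of the 10 genes. Horizontal lines are the medians of the genes and diamonds the promoter regions. The 14 Igf1 regions lay between 0.16 and 1.63, while the regions of the other 9 genes lay between -1.90 and 0.46.

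The sequences of the Igf1 regions are shown because STAT5 is the factor through which growth hormone acts on this gene. The element TTCNNNGAA, which reads the same on both strands, occurred 15 times in 8 of the 14 Igf1 regions (6.15 per 10 kb, beside 3.15 per 10 kb over all regions), and all 8 were among the 12 of 14 (85.7%) that were called more accessible, so that their number says little about the element. In the central 500 bp it was present in 4 of the 12 Igf1 regions of that length (33.3%) and in 14.2% of all such regions. Each site is given with 10 bases on either side (GRCm38, plus strand, which is the strand of Igf1), with the element in capitals and its distance from the first Igf1 TSS.
4008 bp from the TSS, chr10:87862263-87862291: ttattcaagtTTCCATGAAaaatactgaa
4718 bp from the TSS, chr10:87862973-87863001: cttaggggccTTCCTGGAAgaaagtacac
4794 bp from the TSS, chr10:87863049-87863077: gtctgactgcTTCTTAGAAtgaagagcga
7583 bp from the TSS, chr10:87865838-87865866: gtgcaaagagTTCTTGGAAcctgggcgtg
15119 bp from the TSS, chr10:87873374-87873402: aagctgtgtgTTCCTGGAAactctgaaac
15381 bp from the TSS, chr10:87873636-87873664: aatcctgtgtTTCTGGGAAgatagcacta
26750 bp from the TSS, chr10:87885005-87885033: taaacataagTTCTTAGAActcttggaca
27400 bp from the TSS, chr10:87885655-87885683: atctttcaccTTCACTGAAtcatgtatct
27647 bp from the TSS, chr10:87885902-87885930: gctgtcatctTTCAGGGAAatctaggaat
36737 bp from the TSS, chr10:87894992-87895020: tttgagattgTTCCTGGAAagaaatggga
43869 bp from the TSS, chr10:87902124-87902152: cgggctccagTTCTCAGAAaggaaattcg
43884 bp from the TSS, chr10:87902139-87902167: agaaaggaaaTTCGCAGAAgtgagtgaat
48679 bp from the TSS, chr10:87906934-87906962: agggtcatgaTTCCTAGAAgagatgacct
48814 bp from the TSS, chr10:87907069-87907097: tgacacatagTTCACAGAAaaagagaaca
67374 bp from the TSS, chr10:87925629-87925657: gaacttggaaTTCCTTGAAgtcaaaagat
The promoter region and that at 27.3 kb hold 3 elements each, those at 15.4, 43.8 and 48.1 kb hold 2 each and those at 8.2, 37.0 and 68.3 kb hold 1 each, in regions of unequal length. The FOXO element GTAAACA (or TGTTTAC) occurred 4 times in the Igf1 regions (1.64 per 10 kb, beside 1.79 over all regions), and the HNF4A element CAAAGTCCA (or TGGACTTTG) was not found in these letters. A match is a description of the sequence, and binding of a factor was not measured.

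The promoter of Igf1 as RefSeq places it lies inside the Igf1 promoter region and holds none of the 3 elements. It is printed beside that of Cish, a STAT5 target gene described further on, which holds a pair of STAT5 elements. The element is present in 8.3% of 32851 RefSeq promoters of this length, and capitals again mark it.
Igf1 promoter, GRCm38.p6 chr10:87860861-87861160, plus strand: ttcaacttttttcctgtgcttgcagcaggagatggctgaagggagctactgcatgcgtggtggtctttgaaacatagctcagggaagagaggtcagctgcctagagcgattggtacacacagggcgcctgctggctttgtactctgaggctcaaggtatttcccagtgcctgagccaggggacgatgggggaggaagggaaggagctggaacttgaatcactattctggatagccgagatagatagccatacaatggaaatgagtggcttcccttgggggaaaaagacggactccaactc
Cish promoter, GRCm38.p6 chr9:107296409-107296708, plus strand: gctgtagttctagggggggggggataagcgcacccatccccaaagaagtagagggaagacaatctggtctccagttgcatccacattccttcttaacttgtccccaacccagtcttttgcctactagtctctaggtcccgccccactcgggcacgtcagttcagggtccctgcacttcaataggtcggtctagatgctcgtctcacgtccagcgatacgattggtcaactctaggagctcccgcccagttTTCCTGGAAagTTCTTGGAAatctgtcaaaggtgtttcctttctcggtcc

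Igf1 (ENSMUSG00000020053.18, chr10:87858265-87937042, plus strand) had the highest CPM at its promoter region, chr10:87857375-87863559, which spans 6185 bp and also holds a TSS of the gene Igf1os. Its accessibility was 50.3, 64.4 and 105.9 CPM (counts relative to the library size after TMM scaling) in young replicates 1 to 3 and 167, 117, 143 and 141 CPM in aged replicates 1 to 4. All aged samples thus exceeded all young samples, and young replicate 3 came closest to them. The log2 fold change was 0.97 ± 0.20 (SE, adjusted p = 0.020 by edgeR). A region that holds TSSs of 2 genes cannot be assigned to either of them. Per length it was at 11.9 CPM per kb in young and 23.0 in aged liver, below the region at 39.2 kb (15.2 and 31.9 CPM per kb).

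The largest change was found in the first intronic region, centred 8.2 kb from the TSS (chr10:87865415-87867455), with a log2 fold change of 1.63 ± 0.28 (edgeR, adjusted p = 0.011). It measured 8.70, 11.4 and 11.3 CPM in the young samples and 51.0, 16.7, 28.7 and 31.6 CPM in the aged samples. The groups did not overlap, yet the aged samples differed by more than the young ones, with aged replicate 1 highest and aged replicate 2 lowest. The same order at the ends was seen in the intronic region at 14.0 kb (4.17, 5.74 and 6.25 CPM in young and 25.2, 6.08, 12.8 and 9.55 CPM in aged samples), where aged replicate 2 lay below young replicate 3 and the log2 fold change was 1.37 ± 0.37 (edgeR, adjusted p = 0.048). At 15.4 kb the values were 2.41, 3.52 and 4.60 CPM in young and 14.1, 5.69, 7.47 and 9.04 CPM in aged samples, and at 17.9 kb, in a region of only 344 bp, they were 1.39, 2.04 and 1.64 CPM against 4.92, 3.53, 5.84 and 4.33 CPM. These 4 neighbouring regions thus had log2 fold changes of 1.37 to 1.63, beside 0.97 at the promoter region, a difference that was not tested. The value at 14.0 kb was 0.81 without aged replicate 1, and this region lost its call in 12 of 22 alternatives.

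Further into the gene, the regions at 27.3, 37.0, 39.2 and 48.1 kb were more accessible in themselves and changed less, with log2 fold changes of 0.87, 0.75, 1.05 and 0.76. The region at 39.2 kb had the lowest adjusted p of these, with 10.2, 19.3 and 16.4 CPM in young and 32.0, 26.7, 35.5 and 33.9 CPM in aged samples (edgeR, adjusted p = 0.013). Between them lay the region at 43.8 kb with its paired STAT5 elements, which measured 4.72, 9.60 and 13.2 CPM in young and 25.3, 21.2, 33.9 and 21.9 CPM in aged samples (log2 fold change 1.50 ± 0.27, edgeR, adjusted p = 0.012). In all 5 regions the groups did not overlap, and young replicate 1 was the lowest of the 7 samples.

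The last 2 regions, at 57.5 kb over a coding exon and at 68.3 kb in an intron, had the smallest changes among those called, at 0.62 ± 0.16 and 0.65 ± 0.17 on the log2 scale (edgeR, adjusted p = 0.037 and 0.038), and lost their calls in 12 and 13 of 22 alternatives. The coding region measured 18.0, 23.2 and 16.3 CPM in young and 30.0, 25.5, 34.8 and 29.5 CPM in aged samples. Outside these 12 regions, the intron at 21.8 kb had a log2 fold change of 1.01 ± 0.35 that did not pass the threshold (edgeR, adjusted p = 0.099), with aged replicate 2 (2.16 CPM) below all young samples (2.80 to 3.06 CPM). The region at -10.1 kb, upstream of the gene, had few counts (3 in 1 sample) and a log2 fold change of 0.16 ± 0.45.

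**Figure D2:**
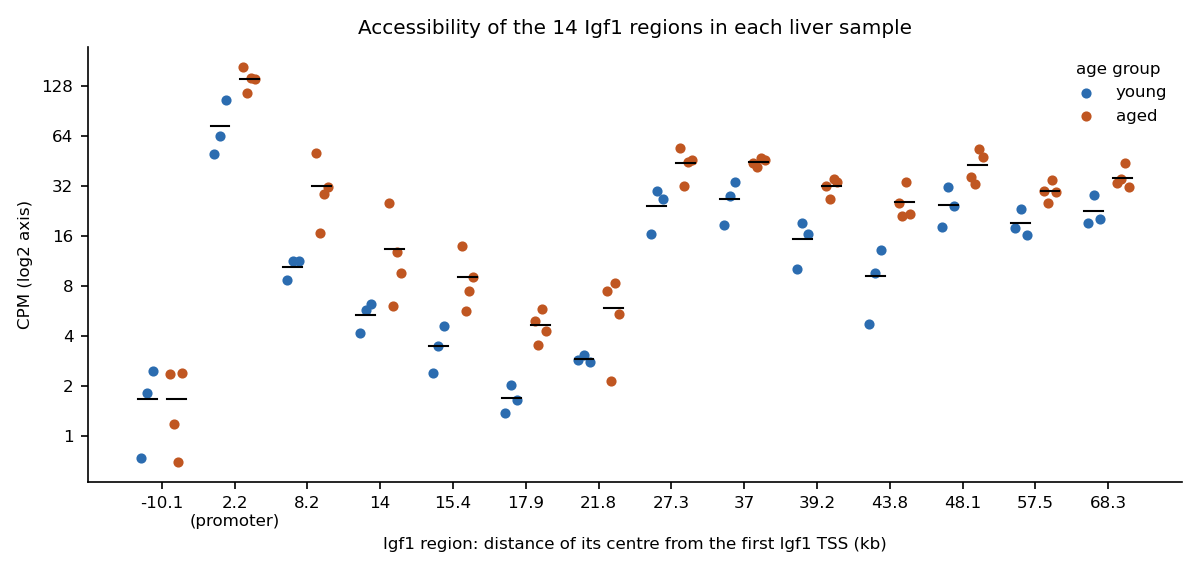
Accessibility in CPM (log2 axis) of the 14 Igf1 regions, ordered by the distance of their centres from the first Igf1 TSS. Points are the 3 young and 4 aged samples and black lines their means. In 11 regions all aged samples lie above all young samples, and the exceptions are the regions at -10.1, 14.0 and 21.8 kb.

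Summed over its 14 regions, Igf1 accessibility was 175.8, 261.7 and 286.1 CPM in young and 527.6, 367.5, 500.8 and 459.4 CPM in aged samples, a ratio of the means of 1.92. Among the 820 protein-coding genes with at least 10 regions in the same window, Igf1 had the highest share of regions called more accessible (85.7%) and the highest median log2 fold change. The next share was 30.0%, at Serpina3m. This ranking was looked up after the values of Igf1 had been seen and is given as a description.

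The direction at the 12 called Igf1 regions was the same in all alternatives, but the number called depended on single samples. Without young replicate 1 only 1 of the 14 regions passed the threshold, without aged replicate 1 or aged replicate 3 it was 3 regions, and without young replicate 2 it was 6, while leaving out a sample lowered the median log2 fold change of the gene to no less than 0.80. Over all regions the number called more accessible also fell, from 1360 to 55 when young replicate 1 was left out, 129 for aged replicate 1, 176 for aged replicate 3 and 196 for young replicate 2. With aged replicates 1 and 3 summed, as if they were the 2 lobules of 1 liver, 5 regions were called (269 of all regions), and with the other pairs 8 to 13. With total counts 8 regions were called, and the region at 43.8 kb was called in all 22 alternatives run for single regions.

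The strength of a region moved with the change throughout the data, so each member was set beside regions of like strength. In deciles of all regions by mean log2 CPM, the median change was -0.42 (log2) in the weakest and 0.28 in the strongest decile. All 14 Igf1 regions lay above the median of their decile, among them weak ones such as the region at 17.9 kb, with 1.41 ± 0.30 in the second decile, where the median was -0.29. With offsets that remove this trend, the log2 fold changes of the 14 regions were 0.52 to 1.77 and 5 remained called, at 8.2, 15.4, 17.9, 39.2 and 43.8 kb. The promoter region was then at 0.63 (edgeR, adjusted p = 0.18). Of the other 110 member regions, 56 lay above the median of their decile.

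**Figure D3:**
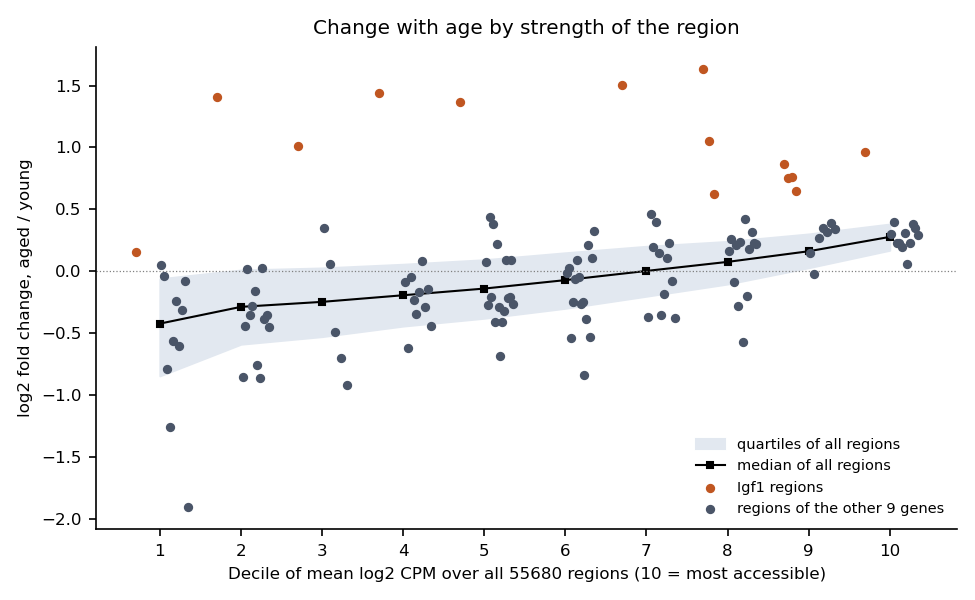
The log2 fold change of each member region against its decile of mean log2 CPM, where 10 holds the most accessible regions. The black line and the shaded band are the median and quartiles of all 55680 regions, with the median rising from -0.42 to 0.28. The Igf1 points lie above the band in all deciles, while the other 9 genes follow the line with both higher and lower points.

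Whether the change extended beyond the gene was read from the regions within 200 kb of the Igf1 window. The 2 downstream regions, the nearer one 198.8 kb from the TSS, had log2 fold changes of -0.09 and -0.12. Upstream, the 3 regions nearest to the window, at -26.1, -30.5 and -70.5 kb, had values of 0.03, -0.34 and -0.46, none of them called. A group of 4 regions farther away, at -138.0 to -154.0 kb, had values of 0.45 to 0.70, of which the region at -146.4 kb passed the threshold (0.70 ± 0.19, edgeR, adjusted p = 0.044). The regions nearest to the gene thus lay near or below 0, whereas these distant ones had positive values.

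**Figure D4:**
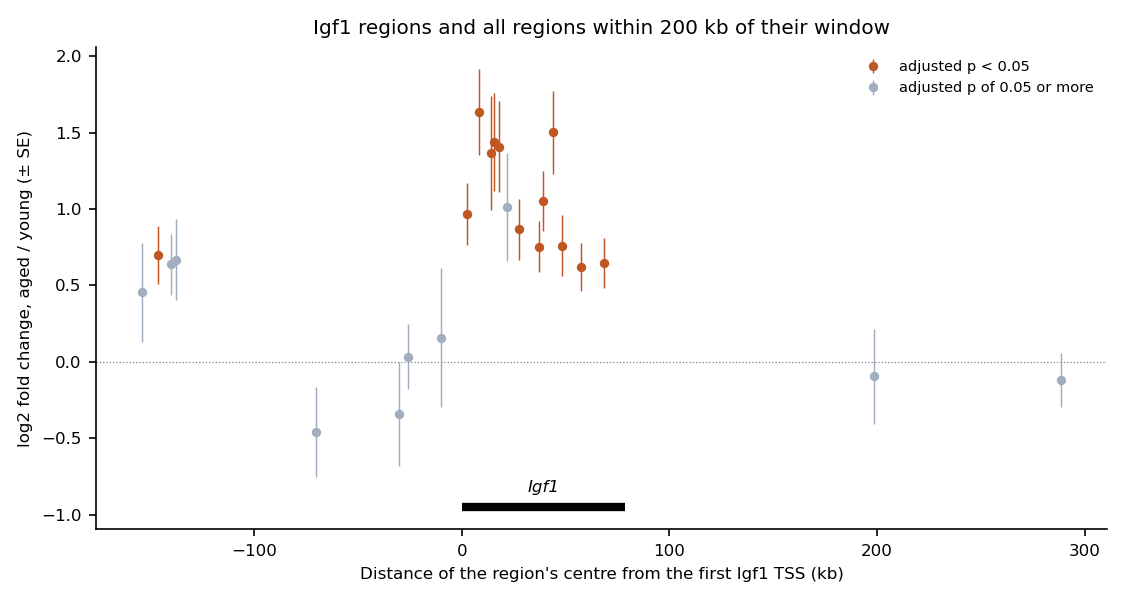
The log2 fold change with its standard error for the Igf1 regions and all regions within 200 kb of their window, by distance from the first Igf1 TSS. The black bar is the gene. The 14 Igf1 regions lie at 0.16 to 1.63, while the downstream regions and those at -26.1 to -70.5 kb lie between -0.46 and 0.03.

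The proteins that carry IGF-1 in the blood showed no called region in the main fit. Igfals (ENSMUSG00000046070.9), which encodes the acid-labile subunit and is a target of growth hormone in hepatocytes, came closest: its promoter region (chr17:24876937-24879342) measured 76.9, 96.7 and 88.8 CPM in young and 122, 97.9, 128 and 110 CPM in aged samples. All aged samples were higher, but aged replicate 2 exceeded young replicate 2 only slightly, and the log2 fold change of 0.39 ± 0.12 missed the threshold (edgeR, adjusted p = 0.078). DESeq2 placed it below the threshold (adjusted p = 0.034), as did GC offsets (edgeR, adjusted p = 0.018), while with offsets for strength the change was 0.07. Of the 14 RefSeq promoters of the member genes, those that hold a STAT5 element are 2 of Igfals. Upstream of the gene, at -6.7 kb, the log2 fold change was -0.62 ± 0.27 (edgeR, adjusted p = 0.17). Igfbp2 (ENSMUSG00000039323.18), a binding protein that limits access of IGF-1 to its receptor, had a promoter region within a narrow range, with 31.4 to 33.6 CPM in young and 31.1 to 33.3 CPM in aged samples and a log2 fold change of -0.02 ± 0.11. Downstream of Igfbp2, at 29.9 kb, aged replicates 1 to 3 (10.5 to 15.5 CPM) lay below the young samples (21.2 to 24.9 CPM) while aged replicate 4 did not (22.9 CPM). The log2 fold change there was -0.57 ± 0.21 (edgeR, adjusted p = 0.12), and -0.83 without aged replicate 4 (edgeR, adjusted p = 0.013).

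Igfbp1 (ENSMUSG00000020429.7), whose transcription is raised by FOXO1 in fasting and lowered by insulin, varied widely between samples of the same age, and none of its 6 regions was called. Its promoter region measured 39.7, 55.4 and 43.6 CPM in young and 45.5, 40.0, 55.3 and 76.7 CPM in aged samples (log2 fold change 0.23 ± 0.19). This change was 0.011 with offsets for strength and 0.014 to 0.39 when 1 sample was left out. The region over its 3' end, at 5.6 kb (chr11:7202536-7204319, named after its values were seen), ran from 11.3 to 43.8 CPM in young and from 5.10 to 63.4 CPM in aged samples, with a log2 fold change of -0.09 ± 0.63. Aged replicates 1 and 2 were lowest and aged replicate 4 highest, so the groups overlapped. Downstream, at 13.1 kb, in a region that overlaps the neighbouring gene Igfbp3, the log2 fold change was -0.35 ± 0.26. It was -0.11 with offsets for strength and -0.50 to -0.17 when 1 sample was left out.

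At the growth hormone receptor and its transcription factor no region was called more accessible in the main fit. Over all regions 46.6% had log2 fold changes above 0, with a median of -0.04. The medians of the weaker deciles 1 to 6 were -0.42 to -0.07. Beside that, Ghr (ENSMUSG00000055737.12), the receptor, had log2 fold changes below 0 in 21 of its 32 regions and a median of -0.20. The promoter region at its first TSS (chr15:3581559-3584670) measured 77.5, 78.3 and 83.5 CPM in young and 96.1, 87.3, 77.5 and 71.3 CPM in aged samples, with overlapping groups and a log2 fold change of 0.06 ± 0.12. A second promoter region of the gene, at an internal TSS 111.5 kb away, was at 0.21 ± 0.21. In the intron at 192.7 kb all aged samples were lower, with a log2 fold change of -0.92 ± 0.28 that missed the threshold (edgeR, adjusted p = 0.066). It passed with total counts (edgeR, adjusted p = 0.045), with limma voom (adjusted p = 0.041) and with aged replicates 2 and 4 summed (edgeR, adjusted p = 0.042), and was at -0.64 with offsets for strength (edgeR, adjusted p = 0.27). The called region lay 7.9 kb beyond the 3' end of Ghr (chr15:3309375-3309817), with 3.24, 4.50 and 3.62 CPM in young and 1.14, 1.57, 0.93 and 0.51 CPM in aged samples (log2 fold change -1.90 ± 0.36, edgeR, adjusted p = 0.014). It was among the weakest decile, where the median was -0.42, held as few as 4 counts in a sample, and was no longer called with offsets for strength (-1.35, edgeR, adjusted p = 0.085), after thinning of all libraries to the smallest total or without young replicate 1, young replicate 2 or aged replicate 1 (adjusted p = 0.054, 0.076 and 0.051).

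Stat5b (ENSMUSG00000020919.11), the transcription factor downstream of the receptor, had log2 fold changes above 0 in 13 of 15 regions and a median of 0.32. This compares with 46.6% above 0 over all regions. None of the Stat5b regions was called in the main fit. Its promoter region (chr11:100849937-100851412) measured 53.4, 52.4 and 52.5 CPM in young and 65.5, 57.1, 78.9 and 76.5 CPM in aged samples. The young samples were nearly equal and all aged samples were higher, with a log2 fold change of 0.40 ± 0.12 (edgeR, adjusted p = 0.071; DESeq2, adjusted p = 0.039) that was 0.15 with offsets for strength and 0.48 with GC offsets (edgeR, adjusted p = 0.014). The promoter regions of Stat5b and Igfals were also called without aged replicate 2 and with aged replicates 2 and 4 summed. Aged samples also exceeded young ones without overlap in the introns at 17.0 and 21.3 kb and at the promoter of the neighbouring paralogue Stat5a, which lies within the window of Stat5b, and GC offsets called these 3 regions too (edgeR, adjusted p = 0.041, 0.035 and 0.020). A second promoter region of Stat5b, at 28.5 kb, was at 0.32 ± 0.17.

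Of the insulin side, no region was called at Insr, Irs1 or Irs2 in the main fit. Insr (ENSMUSG00000005534.10), the insulin receptor, had a promoter region with 61.6, 68.3 and 68.6 CPM in young and 73.8, 77.7, 75.4 and 75.9 CPM in aged samples, higher in all aged samples but by only 0.19 ± 0.10 on the log2 scale (edgeR, adjusted p = 0.26), a value that turned to -0.07 with offsets for strength. Its 19 regions had a median of -0.21, and the largest change among those with at least 10 counts in all samples was -0.70 ± 0.28, over a coding exon at 94.6 kb (edgeR, adjusted p = 0.13). At the promoter region of Irs1 (ENSMUSG00000055980.2), the main adaptor between receptor and PI3-kinase together with Irs2, the values were 72.4, 71.3 and 63.1 CPM in young and 85.7, 77.5, 90.6 and 88.7 CPM in aged samples. All aged samples were higher, with a log2 fold change of 0.31 ± 0.11 that missed the threshold (edgeR, adjusted p = 0.099) and was 0.04 with offsets for strength, while with GC offsets it was called (0.39, edgeR, adjusted p = 0.015). In its intron at 5.0 kb the log2 fold change was 0.44 ± 0.27, and 0.25 to 0.72 when 1 sample was left out. Irs2 (ENSMUSG00000038894.7) had the most accessible promoter of the 10 genes per length, with 42.6 CPM per kb in young and 49.9 CPM per kb in aged liver, and its groups overlapped (log2 fold change 0.23 ± 0.11, and -0.14 with offsets for strength), while with GC offsets it was called (0.32, edgeR, adjusted p = 0.028). Downstream of Irs2, at 34.0 kb, all aged samples (16.9 to 21.3 CPM) were above the young ones (12.5 to 16.2 CPM), by 0.40 ± 0.16 on the log2 scale (edgeR, adjusted p = 0.14).

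Foxo1 (ENSMUSG00000044167.6), the transcription factor that insulin restrains, had log2 fold changes below 0 in 12 of its 14 regions. Over all regions 46.6% were above 0. The promoter region of Foxo1 measured 91.3 to 108.7 CPM in young and 105.6 to 124.2 CPM in aged samples. Its log2 fold change was 0.23 ± 0.11, and -0.10 with offsets for strength. The intronic region at 59.7 kb (chr3:52326903-52329131) was called less accessible, with 12.9, 18.7 and 15.3 CPM in young and 10.3, 8.63, 5.60 and 9.93 CPM in aged samples. All aged samples were lower there, with a log2 fold change of -0.84 ± 0.22 (edgeR, adjusted p = 0.039). The call was lost, at adjusted p of 0.060 to 0.17, when any 1 of young replicates 1 to 3 or aged replicates 1 to 3 was left out, and in 11 of 22 alternatives in all, among them offsets for strength (-0.76, edgeR, adjusted p = 0.11), GC offsets (-0.68, edgeR, adjusted p = 0.052) and 3 of the 6 summed pairs.

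**Figure D5:**
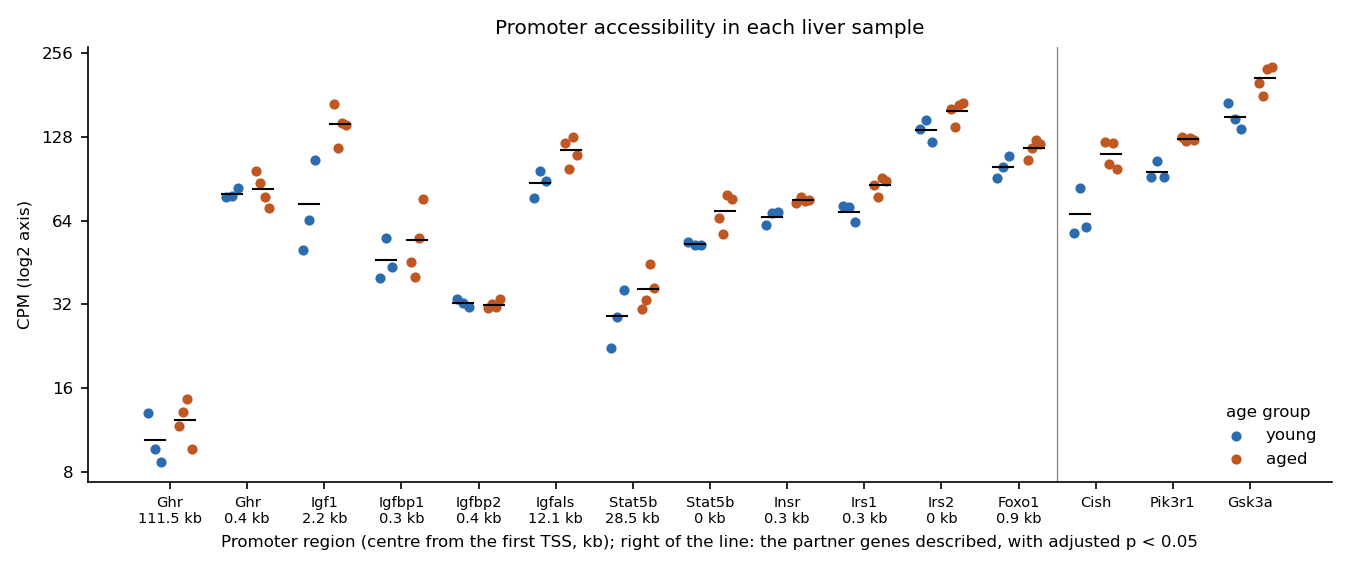
Promoter accessibility in CPM (log2 axis) for the 12 promoter regions of the 10 genes, labelled with the distance of the region's centre from the first TSS, and for 3 partner genes whose promoter was called. Points are the 3 young and 4 aged samples and lines their means. All aged samples lie above all young samples at Igf1, Igfals, Stat5b (0 kb), Insr, Irs1, Cish, Pik3r1 and Gsk3a, while the groups overlap at both Ghr regions, Igfbp1, Igfbp2, Stat5b (28.5 kb), Irs2 and Foxo1.

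Other genes of the pathway were followed at their promoters. Of 52 partner genes, 48 had a promoter region (Igf2, Igfbp5, Igfbp6 and Ide had none), 4 of these were called more accessible and 0 less accessible, where 4.48% of all promoter regions were called higher and 2.06% lower. The median log2 fold change was 0.22 over the 48 partners, 0.23 over the 11 member promoters outside Igf1 and 0.09 over all promoter regions. These sets differ in strength, as each partner was taken at its strongest promoter region. In deciles 9 and 10 of all regions by strength the medians were 0.16 and 0.28, with 5.75% and 11.7% called higher. Of the 11 member promoters outside Igf1, 5 lay above the median of their decile. Among 9 genes of the growth hormone axis, Cish was called, which encodes an inhibitor of the receptor that STAT5 induces. Its promoter region, which holds the sequence printed above, measured 57.7, 83.6 and 60.8 CPM in young and 123, 102, 122 and 98.3 CPM in aged samples (log2 fold change 0.71 ± 0.14, edgeR, adjusted p = 0.017). This region is also a promoter region of Gm17040 and cannot be assigned to either gene alone. Socs2, another such inhibitor and STAT5 target, was at 0.54 ± 0.17 and missed the threshold (edgeR, adjusted p = 0.072), with aged replicate 2 (50.8 CPM) below young replicate 2 (58.8 CPM). It was called with DESeq2 (adjusted p = 0.035) and with GC offsets (edgeR, adjusted p = 0.021), and was at 0.31 with offsets for strength. Its region is also a promoter region of 5730420D15Rik.

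On the insulin side, Pik3r1, the regulatory subunit of PI3-kinase, was at 0.38 ± 0.10 and Gsk3a, a glycogen synthase kinase that AKT inhibits, at 0.46 ± 0.12 (edgeR, adjusted p = 0.045 for both). In the main fit none of the 5 IGF partners, which include Igf1r and Igf2r, was called. The same held for the 8 with promoter regions among the brakes of insulin signalling. With offsets for strength none of the 48 promoters passed the threshold, and the log2 fold changes of Cish, Pik3r1 and Gsk3a were 0.42, 0.06 and 0.07. The number called was 0 without young replicate 1, 1 without aged replicate 1 or 3, and 2 without young replicate 2, where the calls over all regions fell to the numbers given for Igf1. Cish lost its call without young replicate 1, aged replicate 1 or aged replicate 3 (edgeR, adjusted p = 0.076, 0.062 and 0.061). Over 22 alternatives the call was lost in 5 for Cish, in 15 for Pik3r1 and in 14 for Gsk3a. Leaving out 1 sample ended the call of Pik3r1 for all samples but aged replicate 4, and that of Gsk3a for all but aged replicate 2.

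The cell types in the tissue were checked by the promoters of marker genes. All 6 hepatocyte markers had a promoter region, with summed values of 479 to 571 CPM in young and 622 to 719 CPM in aged samples, and Apoa1 was called more accessible (log2 fold change 0.53, edgeR, adjusted p = 0.033). Of the other types, Kupffer cells had a region at 1 of 6 markers (2.22 to 2.65 CPM in young and 0.59 to 2.80 CPM in aged samples), sinusoidal endothelium at 4 of 6 (63.3 to 72.3 and 52.6 to 87.8 CPM), stellate cells at 3 of 6 (26.6 to 29.1 and 16.1 to 23.5 CPM), cholangiocytes at 3 of 5 (43.8 to 52.0 and 39.4 to 56.9 CPM) and lymphocytes at 0 of 6, and none of these was called. The summed values of the hepatocyte markers were higher, and those of the stellate cell markers lower, in all aged samples, but singly this held for 2 of the 6 hepatocyte markers (Apoa1 and Hnf4a) and 2 of the 3 stellate cell markers (Reln and Col1a1). Among the cholangiocyte markers Epcam was lower in all aged samples (1.57 to 2.67 CPM, beside 3.33 to 4.38 CPM in young, log2 fold change -0.77 ± 0.29, edgeR, adjusted p = 0.12). With offsets for strength Apoa1, Hnf4a, Alb, Ttr, Ass1 and Cps1 had log2 fold changes of 0.10, -0.03, -0.16, 0.04, 0.03 and 0.48. With the same offsets Reln, Col1a1 and Lrat were at -0.62, -0.11 and 0.11, and none of these markers was called. GC offsets called 5504 of all regions higher, among them Apoa1, Hnf4a, Ass1, Cps1 and Ttr (edgeR, adjusted p = 0.0042 to 0.042). DESeq2 called Cps1 besides Apoa1 (adjusted p = 0.040 and 0.0027), and total counts called Reln lower (edgeR, adjusted p = 0.032). The part of these markers in the change at Igf1 was not tested.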

How the data were processed

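The authors deposited raw counts of ATAC-seq reads in consensus regions of GRCm38, 1 column for each of the 7 samples, without normalization. Per the submitters' notes and the paper's methods, the authors trimmed reads with cutadapt 1.13, aligned them with Bowtie2 2.4.1, removed low-quality, duplicate and mitochondrial reads, called peaks with MACS2 2.2.7 and counted reads with featureCounts in regions found in at least 2 libraries. Total counts per sample ran from 4474652 to 25461110. Region starts and ends are printed as deposited.

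Regions were annotated with GENCODE M21 (bedtools 2.31.1, Python 3.11.15) and searched for copies covering at least 80% at 95% identity with minimap2 2.31. All regions entered 1 fit in edgeR (version 4.0.16, R 4.3.3; TMM factors, quasi-likelihood F test of aged against young with no other term, Benjamini-Hochberg adjustment over all regions, threshold 0.05). Values per sample are CPM. Offsets for strength came from a loess fit (span 0.3) of each library on mean abundance. The fit was tested on simulated data for this comparison over 55680 regions: it recovered 76% of 200 changed regions with 5.59% false calls. Samples of the same age differed by more than sampling noise (chi-square per degree of freedom 2.40 to 6.07).

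Regions were named by a rule: the promoter regions of each gene, its strongest region, all called regions and the largest change among regions with at least 10 counts in all samples, and all called partner promoters, of which 1 is counted but not reported here. All 14 Igf1 regions were named. For partners and markers the strongest promoter region was used. RefSeq promoters (GRCm38.p6) matched 9 of the 10 genes. The members, gene lists and elements were chosen with earlier results of these data known. Alternatives used DESeq2 1.42.0 (the tool with which the study tested accessibility), total counts, GC offsets, limma 3.58.1 (voom), filters (filterByExpr, at least 10 counts in all samples), thinning to the smallest total, each sample left out, each pair of aged samples summed, a replicate block, a threshold of 0.01, other windows and a prior count of 0.5. Figures were drawn with matplotlib 3.10.9.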

Additional observations from a re-analysis of the deposited data

How the results depend on the processing

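Of the 37 member and partner regions named, 32 kept their direction in all alternatives run. The exceptions were 5 promoter regions that were not called: Ghr fell to -0.054 with total counts, -0.21 with offsets for strength and ran from -0.020 to 0.14 when 1 sample was left out (-0.020 without aged replicate 1), Igfbp2 was at 0.0061 with DESeq2, 0.061 with GC offsets, 0.057 after thinning and -0.040 to 0.0050 when 1 sample was left out (0.0050 without young replicate 1), and with offsets for strength Insr was at -0.068, Irs2 at -0.14 and Foxo1 at -0.10. The 12 more accessible member regions, all at Igf1, became 5 with offsets for strength (all at Igf1), 22 with GC offsets (12 at Igf1), 5 (all at Igf1) with aged replicates 1 and 3 summed, 0 at a threshold of 0.01 and 1 to 14 when 1 sample was left out (1 to 12 at Igf1). The 2 less accessible regions became 4 with total counts, with voom and with the replicate block, 1 with GC offsets, with 10 counts in all samples, after thinning, and with aged replicates 1 and 2, 1 and 3 or 2 and 3 summed, 0 with offsets for strength and at 0.01, and 0 to 3 when 1 sample was left out. The 4 partner promoters became 9 with DESeq2, 20 with GC offsets, 2 with total counts, with 10 counts in all samples, with the replicate block and with aged replicates 1 and 4, 2 and 3 or 3 and 4 summed, 7 with replicates 2 and 4 summed, 1 with replicates 1 and 3 summed, 0 with offsets for strength and at 0.01, and 0 to 4 when 1 sample was left out. The median log2 fold change of the member regions was 0.02, and -0.094 with total counts, 0.098 with GC offsets, 0.091 after thinning and -0.019 to 0.082 when 1 sample was left out, while that of Igf1 stayed within 0.80 to 1.09 when 1 sample was left out. The calls over all regions moved as well: 1360 higher and 1838 lower became 2760 and 1931 with DESeq2, 5504 and 1936 with GC offsets, 543 and 2931 with total counts, 272 and 370 with offsets for strength, and 269 and 693 with replicates 1 and 3 summed. The cause of these shifts was not tested.

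The replicate block left 12 Igf1 regions called and changed the call of 3 of the 37 named regions: Pik3r1 and Gsk3a were no longer called and the region downstream of Igfbp2 was (-0.83). Samples that share a replicate number did not deviate together (correlations of -0.119, 0.056 and 0.030), so the number does not pair them. In 14 of the 124 member regions some sample had fewer than 10 counts.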

Other observations

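The spread at the 3' end of Igfbp1 was set beside Pck1, the gene of the gluconeogenic enzyme that insulin also represses and a partner fixed in the lists, after both had been seen. The Pck1 promoter region measured 99.0, 141 and 139 CPM in young replicates 1 to 3 and 91.5, 99.4, 174 and 167 CPM in aged replicates 1 to 4, with a log2 fold change of 0.07 ± 0.21. The Igfbp1 region measured 11.3, 43.8 and 24.3 CPM and 5.10, 7.06, 25.7 and 63.4 CPM in the same samples. In both regions young replicate 1 and aged replicates 1 and 2 were the 3 lowest samples. G6pc, the catalytic subunit of glucose-6-phosphatase, did not follow this order, with 27.3, 36.3 and 28.8 CPM in young and 38.2, 29.8, 42.7 and 37.4 CPM in aged samples.

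Over 52 values in the aged group, including each member region named by the rule, none lay far enough from the others to be set apart by Dixon's test, and groups of 3 were not tested.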
